A study of Mus musculus with 8 samples.

Results

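Metallothioneins are small, cysteine-rich proteins that bind zinc and copper ions in the cytosol. Their genes are standard readouts of free zinc: the zinc-sensing transcription factor MTF-1, encoded by Mtf1, binds metal response elements in their promoters and raises their transcription when zinc is high. The same factor acts on Slc30a1, which encodes the zinc exporter of the plasma membrane. Mt1 and Mt2 are expressed in many tissues and also respond to glucocorticoids and to oxidative stress, whereas Mt3 is best known from neurons of the brain. The 5 genes described here, Mt1, Mt2, Mt3, Mtf1 and Slc30a1, were selected by symbol from the 18561 genes of an expression table of embryonic mouse gut cells. They were chosen on values of this table that were already known, so their levels and differences are given as a description. Where fits over all genes called any of them, the call only places them among the other genes and is no evidence for a difference. All 5 were in the table and all 5 passed the filter on low counts.

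The table held 8 libraries of enteric neural crest cells, which migrate into the gut and form its neurons and glia, from embryos at embryonic day 14.5. Of these, 5 carried the genotype label Emb knockdown and 3 the label WT. All were sorted by fluorescence with antibodies to CD271, a neurotrophin receptor, and to CD57, a carbohydrate epitope, into tubes of about 200 cells, and amplified with Smart-seq2. The labels gave no construct, promoter or clone for the knockdown and did not say whether each library was a separate animal. The spread between libraries on which the tests rest may thus be technical.

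Emb, which encodes the cell surface glycoprotein embigin, was not lower in the knockdown-labelled libraries as a group. It was at 353 and 349 CPM (counts scaled to library size) in the knockdown-labelled libraries 1 and 2, at 37.2, 21.4 and 21.7 CPM in knockdown-labelled libraries 3 to 5, and at 16.9, 17.7 and 15.9 CPM in the WT libraries. In TPM it was far above WT in knockdown-labelled libraries 1 and 2 as well, but at 19.8, 10.3 and 11.98 TPM in libraries 3 to 5, against 10.4, 12.7 and 10.8 TPM in WT, so whether libraries 4 and 5 go against their label depends on the unit. Every direction below is therefore a difference between libraries with the 2 labels. The knockdown-labelled libraries 1 and 2 also stood apart by cell type markers: 20 leukocyte markers summed to 29342 to 34478 CPM there, against 1635 to 2966 CPM in knockdown-labelled libraries 3 to 5 and 532 to 794 CPM in WT. The sum of 12 markers of enteric neural crest progenitors was 169 to 215 CPM in the knockdown-labelled libraries 1 and 2, 1174 to 1361 CPM in knockdown-labelled libraries 3 to 5 and 3136 to 3314 CPM in WT. Most of the sum in the knockdown-labelled libraries 1 and 2 was Ednrb alone, at 176 and 159 CPM. Sox10, Foxd3 and Tlx2, which define these progenitors, had no count in the knockdown-labelled library 2. Ngfr, the gene of the sort antigen CD271 and also in this list, was at 1.55 and 2.17 CPM in the knockdown-labelled libraries 1 and 2. Its level was 23.6, 14.1 and 14.2 CPM in knockdown-labelled libraries 3 to 5 and 83.3, 208 and 149 CPM in WT. In bulk samples such as these, fewer cells of a type and less RNA per cell cannot be told apart. Comparisons are therefore given with all 8 libraries and with the 6 that remain without the knockdown-labelled libraries 1 and 2. Libraries held 20116607 to 26959265 counts. On the TMM-scaled library sizes used for CPM, which differ from these totals, 3 counts corresponded to 0.0966 to 0.155 CPM.

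The 3 metallothionein genes lie in one cluster on the plus strand of chromosome 8 of GRCm38.p6. Mt3 (gene identifier 17751) spans chr8:94152607-94154148, Mt2 (17750) chr8:94172618-94173567 and Mt1 (17748) chr8:94178883-94180327. The gap between Mt3 and Mt2 was 18469 bases and that between Mt2 and Mt1 was 5315 bases. Mtf1 (17764) spans chr4:124802549-124849800 and Slc30a1 (22782) chr1:191906697-191913248, both on the plus strand. The main transcript of each metallothionein gene has 3 exons. The coding sequences of Mt1 and Mt2 were identical at 79.2% of aligned bases, those of Mt1 and Mt3 at 65.7% and those of Mt2 and Mt3 at 67.2%. No stretch of 50 bases was shared between a transcript of these 3 genes and a transcript of any other gene, so reads of that length within their transcripts separate Mt1 from Mt2. Mt2 overlaps the antisense gene Gm45774 over 749 bases, Slc30a1 the antisense gene 1700034H15Rik over 761 bases and Mtf1 the oppositely oriented gene 1110065P20Rik over 721 bases. Reads in these overlaps could belong to either gene, because Smart-seq2 keeps no strand.

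The promoters of Mt1, Mt2 and Slc30a1 are printed because these are the classical targets of MTF-1, and the first 2 differed most in level between the groups while the last did not. Each runs from 250 bases before to 50 bases after the annotated RefSeq start, on the plus strand of GRCm38.p6, 5′ to 3′. For Mt1 and Slc30a1 that start, from which core positions are counted, lies inside the gene span given above, downstream of its first base. Capitals mark the core of the metal response element, searched as TGCACNC and TGCGCNC on both strands. The windows are chr8:94178839-94179138 for Mt1, chr8:94172368-94172667 for Mt2 and chr1:191906531-191906830 for Slc30a1.
Mt1: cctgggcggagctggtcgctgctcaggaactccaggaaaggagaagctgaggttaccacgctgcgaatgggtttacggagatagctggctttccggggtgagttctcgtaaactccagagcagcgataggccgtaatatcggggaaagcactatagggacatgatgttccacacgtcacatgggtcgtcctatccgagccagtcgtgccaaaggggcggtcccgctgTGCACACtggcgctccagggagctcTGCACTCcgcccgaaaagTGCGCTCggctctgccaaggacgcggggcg
Mt2: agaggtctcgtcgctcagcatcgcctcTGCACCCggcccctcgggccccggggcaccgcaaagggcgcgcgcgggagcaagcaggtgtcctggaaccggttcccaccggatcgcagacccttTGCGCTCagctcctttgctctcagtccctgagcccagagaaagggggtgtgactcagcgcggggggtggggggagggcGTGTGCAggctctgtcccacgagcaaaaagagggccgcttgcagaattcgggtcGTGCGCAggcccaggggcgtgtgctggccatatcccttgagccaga
Slc30a1: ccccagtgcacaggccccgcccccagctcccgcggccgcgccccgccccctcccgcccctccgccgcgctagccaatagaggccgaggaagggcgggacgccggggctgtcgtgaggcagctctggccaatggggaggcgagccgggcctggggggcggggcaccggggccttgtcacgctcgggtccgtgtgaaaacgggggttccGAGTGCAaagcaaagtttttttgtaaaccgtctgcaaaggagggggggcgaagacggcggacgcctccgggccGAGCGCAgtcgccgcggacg

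The Mt1 window held 3 cores, all on the strand of the gene, that began at -23, 2 and 20 bases from the annotated start, counted from 0 at the first base. The Mt2 window held 4, at -223 and -128 on the strand of the gene and at -50 and 4 on the other strand. No 2 matches overlapped. Mt3 had 1 core, at 27 bases, Slc30a1 had 2, at -43 and 30 bases on the other strand, and Mtf1 had 0 in its window. Of 32851 promoters of the same length, 25.7% held at least 1 core, 7.11% at least 2, 1.97% at least 3 and 0.517% at least 4. Of 25 promoters of 20 other zinc handling genes, 12 held at least 1, where a gene with more than 1 promoter was counted once for each. Whether this share differs from that of all promoters was not tested. A match is a run of letters and not a measured binding site, and the start is annotated, not measured in these cells. Sequence outside the windows was not searched. The counts are thus not those of whole promoters, and cores past the end of a window would be missed.

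**Figure D1:**
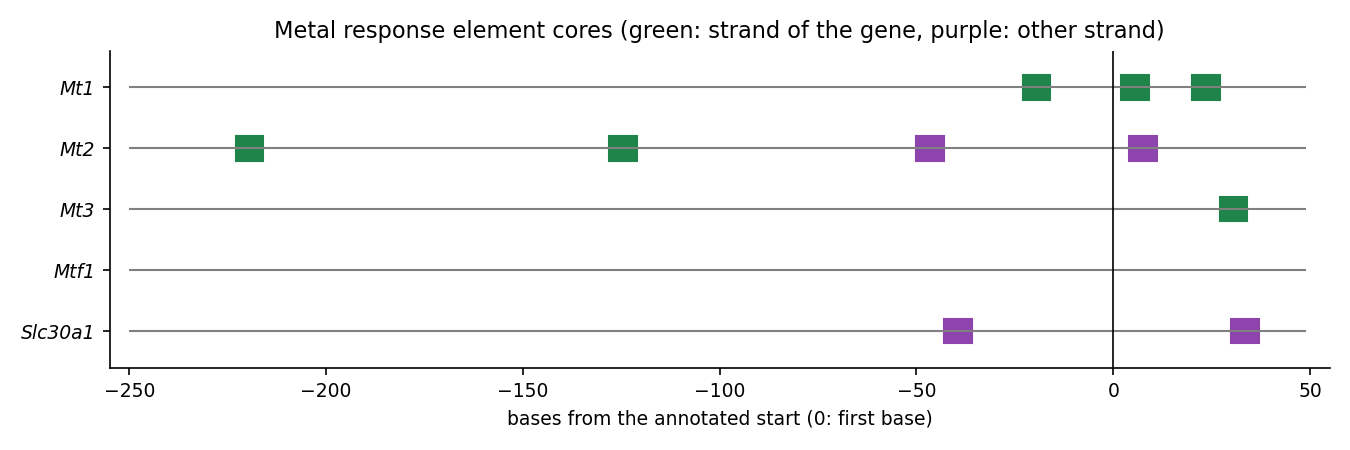
Positions of metal response element cores in the promoter windows of the 5 genes; the x axis gives bases from the annotated start, green boxes lie on the strand of the gene and purple boxes on the other. Mt2 has 4 boxes, Mt1 has 3, Slc30a1 has 2, Mt3 has 1 and Mtf1 has 0.

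Mt1 was the most abundant of the 5 genes in every library, and it separated the groups completely. Its level in TPM, which is scaled to transcript length and so comparable between genes, was 865, 618, 564, 607 and 326 in the knockdown-labelled libraries 1 to 5. In WT libraries 1 to 3 it was 87.0, 73.6 and 102 TPM. The lowest knockdown-labelled library, number 5, was thus above the highest WT library, number 3. In CPM the same separation with 8 libraries was seen for 10.8% of all genes tested, and no such share was taken in TPM. Group means were 596 ± 192 TPM (SD, n = 5) in the knockdown-labelled libraries and 87.5 ± 14.1 TPM (SD, n = 3) in WT, a ratio of 6.81. Mt1 stood above 97.6% to 99.0% of all genes by TPM in the knockdown-labelled libraries and above 87.2% to 91.1% in WT. The counts behind these levels were 6113, 4309, 3920, 3827 and 1874 reads in the knockdown-labelled libraries and 478, 457 and 543 reads in WT, so counting error is small beside the difference. Without the knockdown-labelled libraries 1 and 2, the mean of the other 3 was 499 ± 152 TPM (SD, n = 3) against the same 87.5 TPM in WT.

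Mt2 was also high in some of the knockdown-labelled libraries, but not in all of them. It was at 11.4 and 10.5 TPM in the knockdown-labelled libraries 1 and 2, and at 94.6, 90.5 and 27.0 TPM in knockdown-labelled libraries 3 to 5. In WT libraries 1 to 3 it was at 13.0, 6.33 and 10.3 TPM. In TPM the knockdown-labelled libraries 1 and 2 lay within the WT range and the other 3 lay above it. In CPM, which rests on another scaling between libraries, the same 2 libraries were at 4.28 and 3.53, just above the WT values of 3.00, 1.19 and 2.05, so whether the groups overlap depends on the unit. The numbers behind this were 83, 75, 660, 574 and 156 reads in the knockdown-labelled libraries, against 69, 37 and 56 reads in WT. Group means were 46.8 ± 42.3 TPM (SD, n = 5) and 9.86 ± 3.34 TPM (SD, n = 3). Over the knockdown-labelled libraries 3 to 5 alone the mean was 70.7 ± 37.9 TPM (SD, n = 3).

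Mt3 did not follow the other metallothioneins. It was near its detection limit in the knockdown-labelled libraries 1 and 2, with 3 and 1 reads, or 0.43 and 0.15 TPM. The exact 95% Poisson intervals of these values were 0.0319 to 0.452 CPM and 0.00119 to 0.262 CPM, and they cover counting error only. In the knockdown-labelled libraries 3 to 5 Mt3 was at 13.5, 4.32 and 16.4 TPM, and in WT libraries 1 to 3 at 12.5, 8.15 and 7.01 TPM. Those 3 libraries spread to both sides of the WT range, while the knockdown-labelled libraries 1 and 2 lay far below it. The same 2 libraries had the lowest sums of 10 neuronal markers, 12.5 to 12.8 CPM, against 628 to 1092 CPM in knockdown-labelled libraries 3 to 5 and 1614 to 2095 CPM in WT. The part of neuronal cells in the Mt3 level was not tested.

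**Figure D2:**
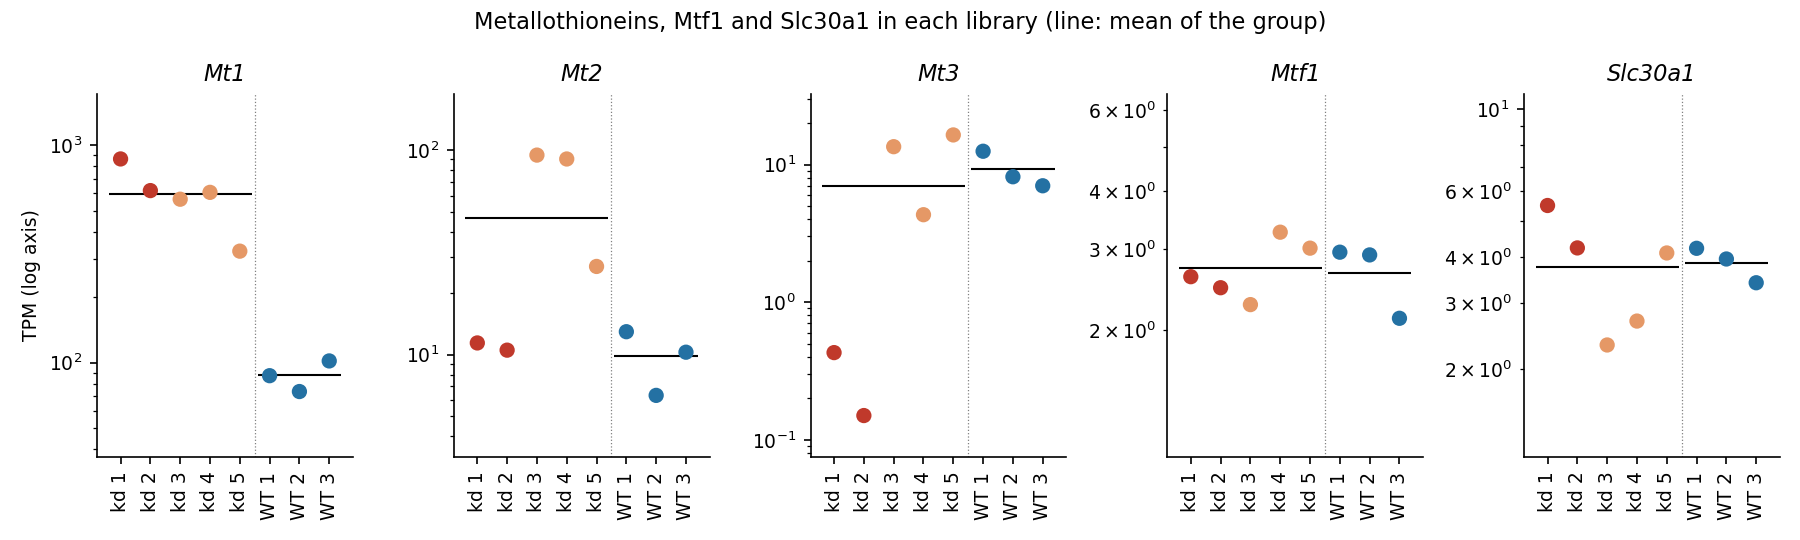
TPM (log axis) of the 5 genes in each library, with the knockdown-labelled libraries (kd 1 to 5; red for 1 and 2, orange for 3 to 5) left of WT (blue); each line is the mean of the group. Mt1 separates the groups, as 10.8% of all genes tested do in CPM. Mt2 is high in kd 3 to 5, Mt3 is low in kd 1 and 2, and Mtf1 and Slc30a1 overlap between groups.

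Mtf1, the zinc sensor itself, was low in every library and in TPM even between the groups. It was at 2.61, 2.47, 2.27, 3.26 and 3.01 TPM in the knockdown-labelled libraries and at 2.95, 2.91 and 2.12 TPM in WT. Group means were 2.72 ± 0.404 TPM (SD, n = 5) and 2.66 ± 0.468 TPM (SD, n = 3), a difference smaller than the spread within either group. In CPM the means were 17.8 ± 3.13 (SD, n = 5) and 12.4 ± 2.60 (SD, n = 3), further apart than either SD, though the ranges overlapped. The ratio of the group means was thus 1.02 in TPM and 1.44 in CPM, so the size of the difference depends on the unit. Between 264 and 445 estimated reads lay behind each value.

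Slc30a1, the exporter that MTF-1 is known to raise when zinc is high, did not separate the groups either. It was at 5.50, 4.23, 2.32, 2.69 and 4.10 TPM in the knockdown-labelled libraries and at 4.22, 3.95 and 3.41 TPM in WT. The group means were 3.77 ± 1.28 TPM (SD, n = 5) and 3.86 ± 0.412 TPM (SD, n = 3). Its highest value was in the knockdown-labelled library 1 and its lowest in the knockdown-labelled library 3, which was among those with the highest Mt2. In knockdown-labelled libraries 3 and 4, Mt1 and Mt2 were above every WT library while Slc30a1 was below every WT library in TPM. In CPM Slc30a1 was at 29.3, 20.8, 9.11, 11.6 and 15.4 in the knockdown-labelled libraries and at 14.4, 11.6 and 10.5 in WT, so that by CPM this held for library 3 but not for library 4. The ratio of the group means was 0.976 in TPM and 1.42 in CPM.

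The order of the 5 genes by TPM had Mt1 first in all 8 libraries. Mt2 came second in every library except WT 2, where Mt3 was above it, and in WT the means of 9.86 ± 3.34 TPM for Mt2 and 9.22 ± 2.89 TPM for Mt3 (SD, n = 3) did not differ beyond their spread. Mt3 was last in the knockdown-labelled libraries 1 and 2 and above Slc30a1 and Mtf1 in knockdown-labelled libraries 3 to 5. Over all knockdown-labelled libraries, Mt3 at 6.96 ± 7.55 TPM, Slc30a1 at 3.77 ± 1.28 TPM and Mtf1 at 2.72 ± 0.404 TPM (SD, n = 5) followed Mt2 with overlapping ranges. In WT, Slc30a1 was above Mtf1 in each of the 3 libraries.

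The balance of Mt1 and Mt2 split the knockdown-labelled libraries. The ratio of Mt1 to Mt2 in TPM was 75.7 and 58.7 in the knockdown-labelled libraries 1 and 2, and 5.97, 6.70 and 12.1 in knockdown-labelled libraries 3 to 5. In WT libraries 1 to 3 it was 6.72, 11.6 and 9.89. Mt2 took 1.34% of the reads of both genes in the knockdown-labelled library 1 (exact Clopper-Pearson 95% interval 1.07% to 1.66%) and 1.71% (1.35% to 2.14%) in knockdown-labelled library 2. The share was 14.4%, 13.0% and 7.68% in the knockdown-labelled libraries 3 to 5 and 12.6%, 7.49% and 9.35% in WT. Thus the knockdown-labelled libraries 3 to 5 had more of both genes than WT at a ratio that overlapped that of WT, whereas in TPM knockdown-labelled libraries 1 and 2 were above WT in Mt1 and within the WT range in Mt2. The Clopper-Pearson intervals of knockdown-labelled libraries 1 and 2 lay below those of all 6 other libraries, but they cover counting error of amplified reads only and not the spread between libraries. They also held the highest leukocyte marker sums given above, and the part of leukocytes in this ratio was not tested.

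**Figure D3:**
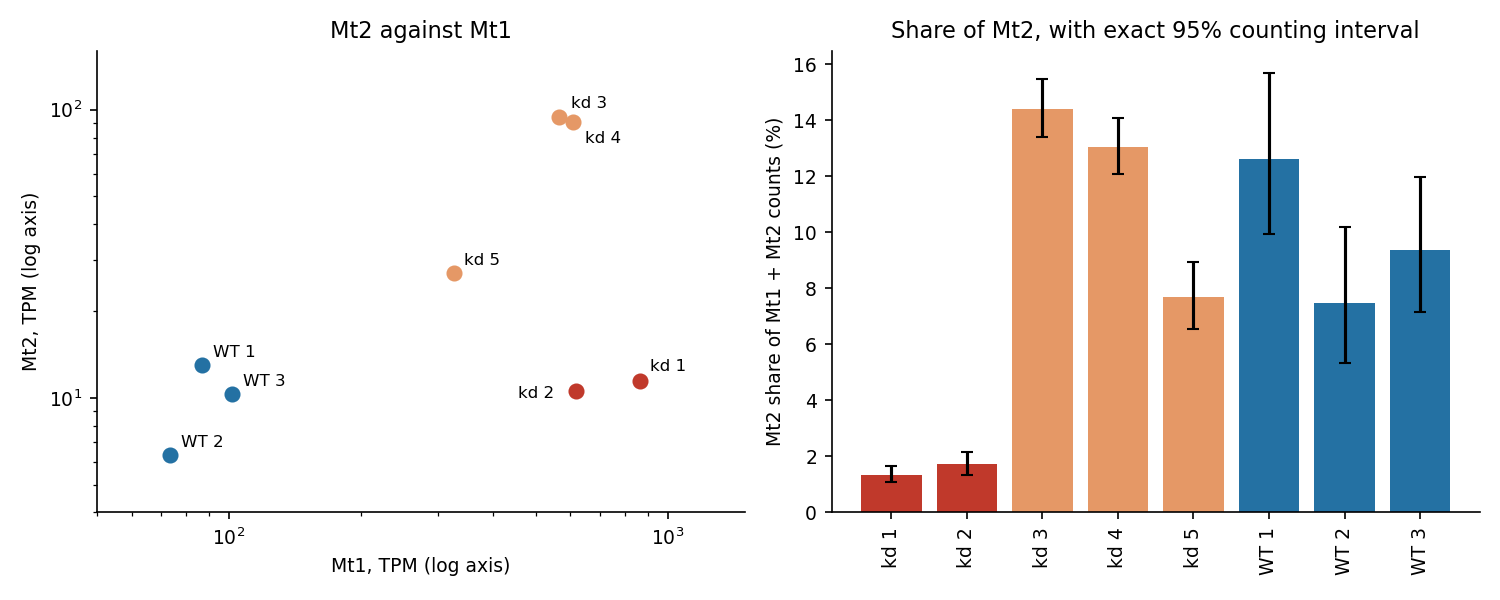
Left, Mt2 against Mt1 in TPM (log axes), 1 point per library; right, Mt2 as a percentage of the reads of Mt1 and Mt2, with exact 95% counting intervals, the knockdown-labelled libraries (kd; red and orange) left of WT (blue). Kd 1 and 2 lie at high Mt1 and low Mt2 with shares of 1.34% and 1.71%, and the other 6 libraries have shares of 7.49% to 14.4%.

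Fitted across all genes with edgeR, the log2 fold change of Mt1 (labelled knockdown over WT) was 3.33 ± 0.45 (SE) with 8 libraries and 2.89 ± 0.29 with 6. For Mt2 it was 2.67 ± 0.89 with 8 libraries and 3.23 ± 0.56 with 6. By size of log2 fold change Mt1 ranked 535 and Mt2 742 of 15411 genes with 8 libraries, and 92 and 55 of 15115 genes with 6. Mt3 was at -0.05 ± 1.23 and 0.66 ± 0.62, Mtf1 at 0.53 ± 0.29 and 0.45 ± 0.27, and Slc30a1 at 0.50 ± 0.43 and -0.01 ± 0.28, each with 8 and then 6 libraries. Both median log2 fold changes over all genes were near zero, at 0.07 with 8 libraries and 0.02 with 6.

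With 8 libraries edgeR's quasi-likelihood test called 0 of 15411 genes (0%) at a Benjamini-Hochberg adjusted p under 0.05, so none of the 5 genes was called. On simulated counts this fit recovered 6 of 70 genes changed 4-fold and 40 of 60 changed 32-fold. Thus 0 calls do not show an absence of difference. Each simulated gene was drawn on its own, so a shift shared by many genes, as between knockdown-labelled libraries, was not simulated. An unadjusted p under 0.05 was reached by 2865 genes, and DESeq2 called 2220, with Mt1 and Mt2 among them. In CPM every knockdown-labelled library was above every WT library for Mt1 and Mt2, as for 10.8% of all genes tested. With 6 libraries edgeR called 3090 of 15115 genes (20.4%), 1673 of them higher (11.1%) and 1417 lower (9.37%) in the knockdown-labelled libraries. Of these calls 54.1% were higher, against 38.7% on log2(FPKM + 1) and 45.4% with library size as the sole scaling, so the split moves with the scaling. Mt1 and Mt2 were among the higher ones, and every knockdown-labelled library was above every WT library for them, as for 20.5% of all genes tested. Since the genes were chosen with this contrast known, these counts only place them among the other genes. The call of Mt2 was lost without the knockdown-labelled library 4 or without WT 3.

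The other genes of zinc handling give the surroundings of this pattern. The list held Mt4 and the remaining Slc30a exporters and Slc39a importers, 24 genes, of which 23 were in the table and 21 were tested. With 8 libraries 0 of the 21 were called by edgeR, 2 were higher and 1 lower at an unadjusted p under 0.05, DESeq2 called 3, and the median log2 fold change was 0.11. With 6 libraries 1 was higher and 2 were lower while 18 did not pass, and the median log2 fold change was 0.01 against 0.02 over all genes. Thus 3 of 21 were called, beside the 20.4% of all genes given above. Mt4, the metallothionein of stratified epithelia, had 1 read in all 8 libraries.

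The 3 called genes were all importers of the Slc39a family. Slc39a1, a zinc importer of the plasma membrane, was at 164 ± 75.5 CPM in the knockdown-labelled libraries 3 to 5 and 68.5 ± 4.23 CPM in WT (SD, n = 3 each), with a log2 fold change of 1.26 ± 0.32 (SE) and an edgeR adjusted p of 0.0303. Slc39a10, another importer of the cell surface, was at 37.8 ± 4.84 CPM and 65.8 ± 4.22 CPM in the same groups, with a log2 fold change of -0.80 ± 0.18 and an adjusted p of 0.0196 in edgeR's fit. Slc39a3 was at 20.6 ± 1.14 CPM and 34.7 ± 2.67 CPM, with a log2 fold change of -0.75 ± 0.18 and an adjusted p of 0.0263 in edgeR's fit. Slc39a11 had a log2 fold change of -0.84 ± 0.28 and did not pass, at an adjusted p of 0.0631 in edgeR's fit. In the knockdown-labelled libraries 1 and 2, Slc39a10 was also low, at 24.99 and 25.29 CPM, and Slc39a1 also high, at 205 and 167 CPM, whereas Slc39a3 was at 31.9 and 32.2 CPM, within the WT range of 29.3 to 34.2 CPM. These calls rested on few libraries: all 3 were lost without the knockdown-labelled library 4 or without any 1 of the WT libraries, and Slc39a1 also without the knockdown-labelled library 5 and on log2 FPKM.

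**Figure D4:**
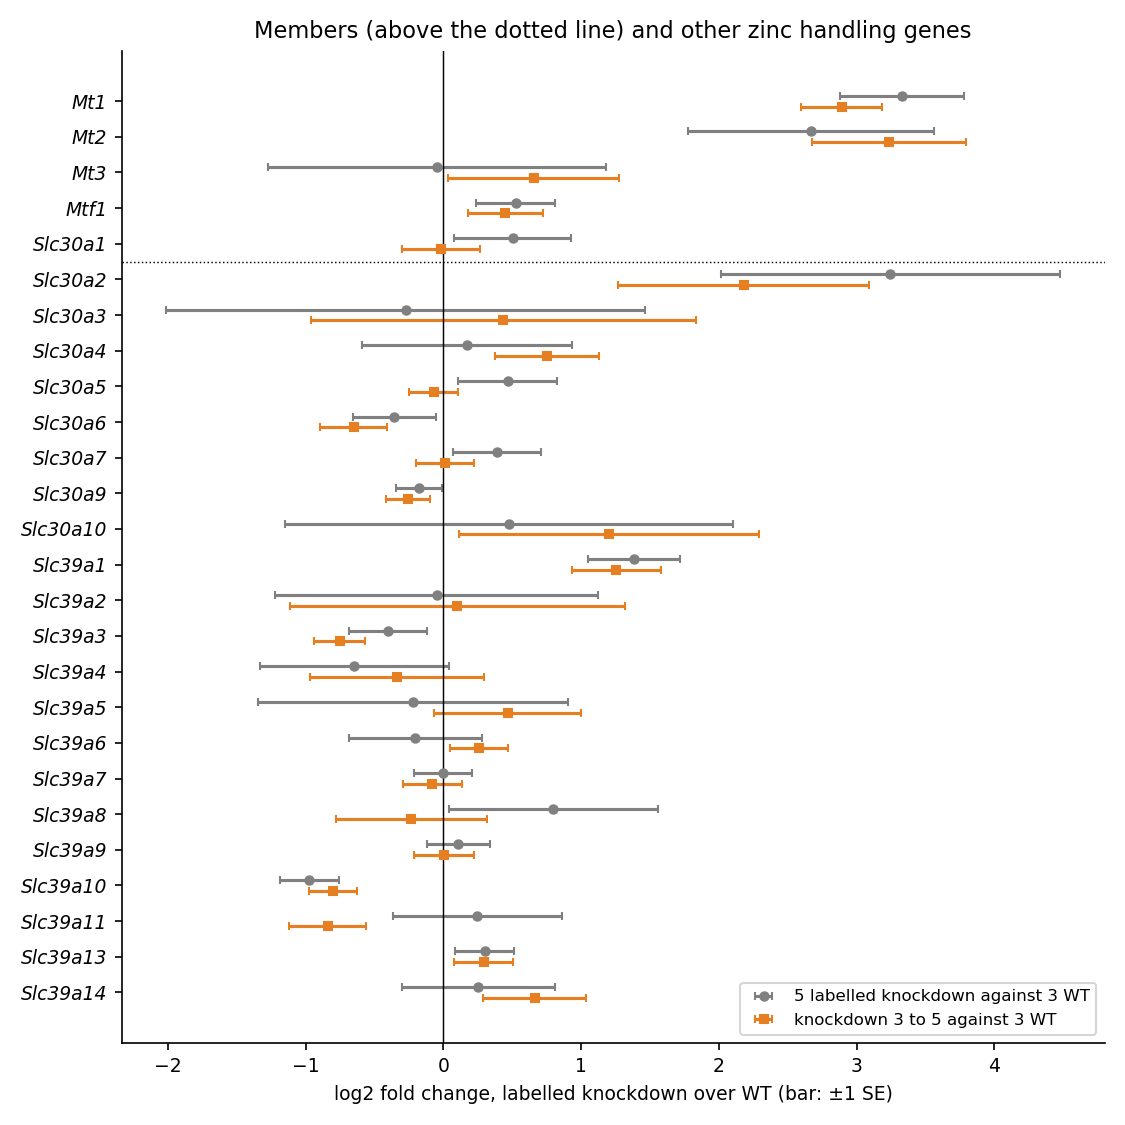
Log2 fold change (labelled knockdown over WT) with its standard error for the 5 genes, above the dotted line, and for 21 other zinc handling genes; grey circles are the fit of 8 libraries and orange squares that of 6. Mt1 and Mt2 lie near 3 in both fits, and most transporters lie within 1 of zero.

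Metallothioneins also bind copper, and 4 of 10 genes of copper handling passed with 6 libraries, 3 higher and 1 lower, beside 20.4% of all genes, with a median of 0.08. The count was 1 without knockdown-labelled library 4, WT 2 or WT 3 and 2 without knockdown-labelled library 5 or WT 1. Cox17, the chaperone that brings copper to cytochrome c oxidase, was at 64.4 ± 21.7 CPM in the knockdown-labelled libraries 3 to 5 and 16.3 ± 2.13 CPM in WT (SD, n = 3 each), with a log2 fold change of 1.98 ± 0.28 (SE) and an edgeR adjusted p of 0.00697. This call stayed past the threshold under all 13 alternatives, and Cox17 was also at 69.2 and 59.7 CPM in the knockdown-labelled libraries 1 and 2. Atox1, the chaperone that feeds the copper pumps, was at 169 ± 7.58 CPM in the knockdown-labelled libraries 3 to 5 and 77.5 ± 12.8 CPM in WT, with an edgeR adjusted p of 0.0091. The copper pump gene Atp7a rose by a log2 fold change of 0.74 (edgeR adjusted p = 0.0425), and the copper importer gene Slc31a1 fell, with a log2 fold change of -0.68 ± 0.21 (edgeR adjusted p = 0.0492). In the knockdown-labelled libraries 1 and 2, however, Slc31a1 was at 143 and 143 CPM, above the WT range of 72.8 to 83.1 CPM. Atox1 was lost without the knockdown-labelled library 4, WT 2 or WT 3, and Atp7a and Slc31a1 without any library except knockdown-labelled library 3. Atp7a also did not pass on log2 FPKM or with library size as the sole scaling, and Slc31a1 did not pass without a filter.

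Of 12 genes of iron handling, 5 were higher, 0 were lower and 7 did not pass with 6 libraries, beside 11.1% higher and 9.37% lower among all genes, and the median log2 fold change was 0.73. The count was 0 without knockdown-labelled library 4, WT 2 or WT 3, 2 without WT 1, and 3 without knockdown-labelled library 5, on either log2 FPKM scale or with library size as the sole scaling. Fth1, the heavy subunit of the iron store ferritin, was at 1420 ± 472 CPM in the knockdown-labelled libraries 3 to 5 and 596 ± 62.4 CPM in WT (SD, n = 3 each), with a log2 fold change of 1.25 ± 0.26 (SE) and an edgeR adjusted p of 0.0163. The transferrin receptor gene Tfrc was at 57.6 ± 6.24 CPM and 33.6 ± 3.12 CPM in these groups (edgeR adjusted p = 0.0218). Ireb2, an iron sensor that binds RNA, Slc25a28, a mitochondrial iron importer, and Slc40a1, the iron exporter ferroportin, were the other 3, at adjusted p of 0.0371, 0.045 and 0.0465 in edgeR's fit. Ireb2 was at 29.7 and 29.2 CPM in the knockdown-labelled libraries 1 and 2, within the WT range of 29.0 to 43.6 CPM. With 8 libraries 0 of the 12 were called by edgeR, 6 were higher and 0 lower at an unadjusted p under 0.05, DESeq2 called 5, and the median was 0.80. Fth1 was at 3754 and 2905 CPM in the knockdown-labelled libraries 1 and 2, which had the highest leukocyte marker sums, and the part of leukocytes in the iron genes was not tested. The call of Fth1 was lost without the knockdown-labelled library 4, WT 2 or WT 3, and those of Tfrc, Ireb2, Slc25a28 and Slc40a1 each in at least 4 of the 6 fits that left 1 library out. Ireb2 and Slc40a1 also did not pass on log2 FPKM, Slc25a28 and Slc40a1 with library size as the sole scaling, and Slc40a1 without a filter.

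Oxidative stress also raises metallothioneins, and of 18 antioxidant genes 4 were higher, 1 was lower and 13 did not pass with 6 libraries, beside 20.4% of all genes called, with a median of -0.16. The count of 5 called became 0 without knockdown-labelled library 4, WT 2 or WT 3, and 3 without knockdown-labelled library 5 or WT 1 and on either log2 FPKM scale. Hmox1, the heme oxygenase, was at 195 and 179 CPM in the knockdown-labelled libraries 1 and 2, and at 28.4, 261 and 293 CPM in knockdown-labelled libraries 3 to 5, against 22.3, 21.9 and 25.6 CPM in WT. Hmox1 in knockdown-labelled library 3 was thus above WT, but by less than in the other knockdown-labelled libraries. The part of oxidative stress in the levels of Mt1 and Mt2 was not tested. The Hmox1 log2 fold change with 6 libraries was 3.06 ± 0.69 (SE), at an edgeR adjusted p of 0.0211, and the call was lost without any library except knockdown-labelled library 3, on log2 FPKM and without a filter. Thioredoxin (Txn1) was higher by a log2 fold change of 1.49 ± 0.28 (edgeR adjusted p = 0.014), glutathione peroxidase Gpx1 by 1.16 (edgeR adjusted p = 0.0215) and superoxide dismutase Sod1 by 0.75 (edgeR adjusted p = 0.0484). Catalase (Cat) was lower, with a log2 fold change of -0.82 (edgeR adjusted p = 0.0295). Without the knockdown-labelled library 4, WT 2 or WT 3 the calls of Txn1 and Gpx1 were lost, that of Sod1 also without knockdown-labelled library 5, on log2 FPKM and with library size as the sole scaling, and that of Cat without any library except knockdown-labelled library 3.

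Of 12 genes of the glucocorticoid response, 2 were higher, 1 was lower and 9 did not pass with 6 libraries, beside 20.4% of all genes called, with a median of -0.04. The count of 3 called became 9 without knockdown-labelled library 3 and 0 without knockdown-labelled library 4, WT 2 or WT 3. Nr3c1, the glucocorticoid receptor, was at 97.6 ± 19.0 CPM in the knockdown-labelled libraries 3 to 5 and 43.0 ± 1.83 CPM in WT (SD, n = 3 each), with a log2 fold change of 1.18 ± 0.19 (SE) and an edgeR adjusted p of 0.00971. Fkbp5, a classical target of the receptor, was lower, at 36.0 ± 3.66 CPM and 67.8 ± 5.29 CPM in the same groups, with a log2 fold change of -0.91 ± 0.17 and an edgeR adjusted p of 0.014. In the knockdown-labelled libraries 1 and 2, however, Fkbp5 was at 88.4 and 75.8 CPM, above the WT range of 57.7 to 67.5 CPM. Per1, a clock gene that also responds to glucocorticoids, was higher by 0.90 (edgeR adjusted p = 0.0349), and Cebpd, at 0.79, did not pass (edgeR adjusted p = 0.0717). Nr3c1 and Fkbp5 lost their calls without the knockdown-labelled library 4, WT 2 or WT 3, and Per1 without any library except knockdown-labelled library 3 and on log2 FPKM. With 8 libraries 0 genes of the copper, antioxidant and glucocorticoid lists were called by edgeR, with 3, 6 and 4 at an unadjusted p under 0.05, and DESeq2 called 3, 6 and 3 of them.

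Cell type markers differed between the groups also without knockdown-labelled libraries 1 and 2. With 6 libraries 15 of 20 leukocyte and 6 of 10 mesenchymal markers were called higher in the knockdown-labelled libraries. Called lower were 8 of 12 progenitor, 9 of 10 endothelial, 5 of 10 neuronal, 4 of 8 glial and 2 of 5 mesothelial markers. Of 8 epithelial markers 1 was higher, and of 8 erythroid markers 1 was lower. Over all genes 11.1% were called higher and 9.37% lower. These marker counts were not followed through the fits that left 1 library out, where calls over all genes ran from 180 to 5982. The mesenchymal sum was 104 to 717 CPM in the knockdown-labelled libraries 1 and 2, 6290 to 7019 CPM in knockdown-labelled libraries 3 to 5 and 3352 to 4522 CPM in WT. The endothelial sum was 74.6 to 83.9, 114 to 214 and 510 to 720 CPM in the same 3 sets of libraries. No leukocyte marker was at 0 in any library, and leukocyte markers took 2.33% to 2.61% of the counts in the knockdown-labelled libraries 1 and 2, 0.176% to 0.305% in knockdown-labelled libraries 3 to 5 and 0.0596% to 0.0914% in WT. The part of any of these cell types in the levels of Mt1 and Mt2 was not tested.

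**Figure D5:**
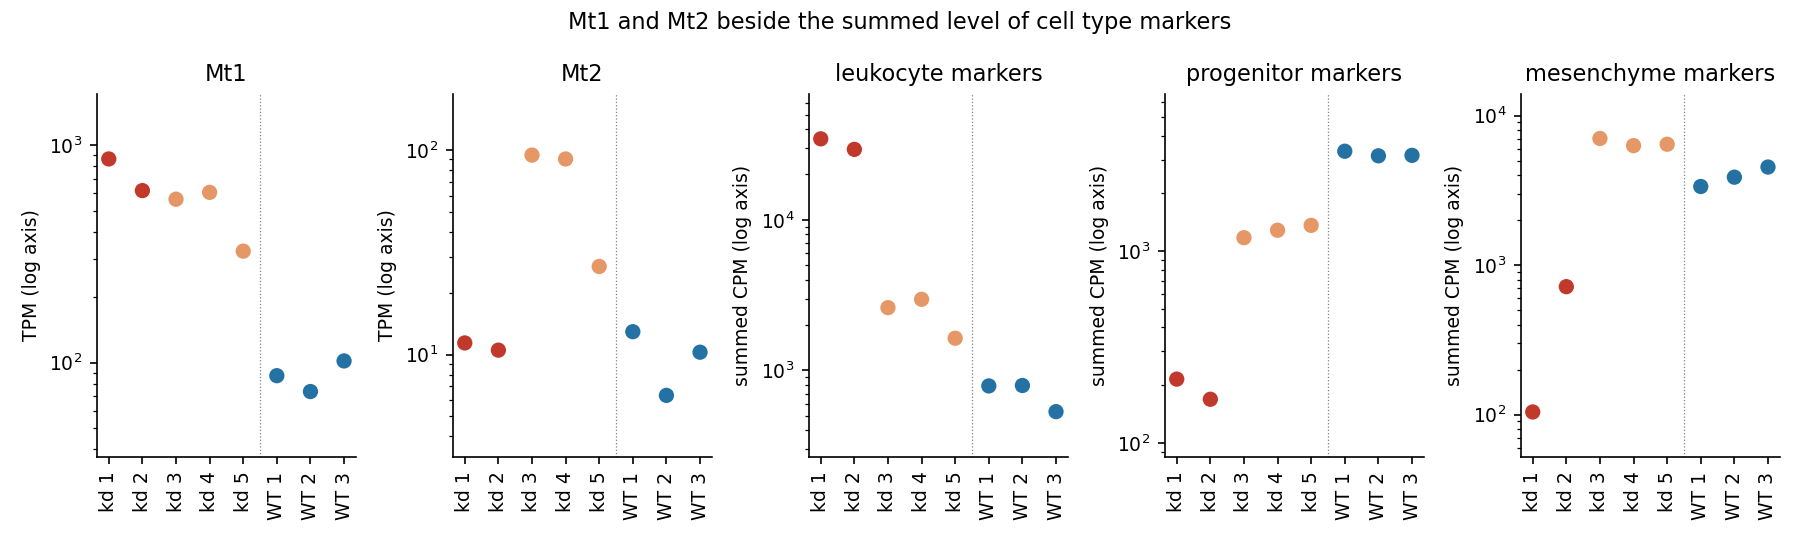
Mt1 and Mt2 in TPM and the summed CPM of leukocyte, progenitor and mesenchymal markers in each library (log axes), with the knockdown-labelled libraries (kd; red for 1 and 2, orange for 3 to 5) left of WT (blue). Leukocyte sums are highest in kd 1 and 2 and lowest in WT, and progenitor sums run the other way.

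The genes with patterns most like those of Mt1 and Mt2 differed between the 2. Likeness was the root mean square difference of log2 CPM, each gene centred on its own mean, over the same 8 libraries, among 12737 genes. For Mt1 the nearest were Ier3, an early response gene, at 0.51, Cd274, which encodes the checkpoint ligand PD-L1, at 0.52, Rgs10 at 0.52, Ifi30, a lysosomal thiol reductase of antigen-presenting cells, at 0.53 and Plxnc1 at 0.54. Ier3 was at 510, 374, 114, 147 and 152 CPM in the knockdown-labelled libraries 1 to 5 and at 36.4, 27.0 and 39.7 CPM in WT. For Mt2 the nearest were Tnnt1 at 0.78, Samd1 at 0.79, Tmem86b at 0.79, Cox6b2 at 0.80 and Rps12 at 0.81, all farther away than those of Mt1. Cox6b2 was at 8.50, 5.65, 31.3, 32.9 and 31.6 CPM in the knockdown-labelled libraries 1 to 5 and at 11.7, 6.15 and 9.06 CPM in WT. Mt2 itself ranked 1599 by likeness to Mt1, and Mt1 ranked 1615 by likeness to Mt2, at a distance of 1.32.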

How the data were processed

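Smart-seq2 libraries of sorted cells were compared between labels. The submitters' processing notes name HISAT and Bowtie2 as tools and GRCm38.p6 as the build; the counting tool and annotation are not given in the sources used here. The authors deposited expected counts per gene without normalisation, of which 17.6% to 19.8% per library were not whole. FPKM and TPM were scaled by the authors, per the file headers. The deposited normalised counts, a signal, were not used for results. Also unused were 8 columns of group means. Amplified copies were counted as reads, since no molecular identifiers were used.

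Expected counts were rounded, filtered with filterByExpr, scaled with TMM and tested two-sided by edgeR 4.0.16 (robust quasi-likelihood) in R 4.3.3, fitted to the whole table, with a Benjamini-Hochberg adjusted p under 0.05 as the threshold. TPM were used as deposited for levels. CPM used TMM-scaled library sizes of 8 libraries for single libraries and of 6 for group means given with a 6-library fit. The comparison of 6 libraries, the members and the gene lists were chosen with earlier results of these data known. Named from each list were up to 4 genes with the smallest p in the 6-library fit, and for Mt1 and Mt2 the 5 nearest genes; Slc40a1, Sod1 and Emb were named in addition. Alternatives were DESeq2 1.42.0, its size factors, no composition factor, other filters, limma 3.58.1 on log2(FPKM + 1) and log2(FPKM + 0.1), leaving out each library, and a replicate block. Fits were tested on simulated data. Counts of any 2 libraries differed beyond sampling noise, by a chi-square of at least 29.5 per degree of freedom, so none was a copy of another and all were kept. With amplified reads this cannot show that the libraries came from separate animals. RefSeq promoters were matched by gene, and 18507 of 18561 identifiers matched RefSeq. Tables were made in pandas 2.3.3 and figures in matplotlib 3.10.9, under Python 3.11.15.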

Additional observations from a re-analysis of the deposited data

Results flagged for a closer look

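Among 36 values of the knockdown-labelled libraries that were screened, 1 stood out. The summed level of the 8 epithelial markers was 1246 CPM in knockdown-labelled library 3, with a gap to the nearest other library of 0.726 of the range over the 5, above the critical value of 0.71. The chance of such a gap is about 1 in 20 for each value screened. No level of the 5 genes in a library stood out by this measure, and groups of 3 libraries were not screened.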

How the results depend on the processing

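The log2 fold change of Mt1 stayed between 2.65 and 3.14 under 13 alternatives with 6 libraries and between 2.92 and 3.52 under 16 with 8, and that of Mt2 between 2.79 and 3.64 and between 1.80 and 3.03. Mt3 with 8 libraries ran from -2.81 to 0.36, and Slc30a1 with 6 libraries from -0.23 to 0.14, so neither had a fixed direction. Genes called with 8 libraries were 0, against 2220 with DESeq2 and 0 to 2 when 1 library was left out, the 2 without the knockdown-labelled library 3. Called zinc handling genes with 8 libraries were 3 with DESeq2. With 6 libraries leaving out 1 library gave 180 to 5982 called genes against 3090: 5982, 180 and 1663 without the knockdown-labelled libraries 3, 4 and 5, and 1388, 417 and 294 without WT 1, 2 and 3. Called zinc handling genes, 3 with 6 libraries, ran from 0 to 6 in those fits and were 5 on both log2(FPKM + 1) and log2(FPKM + 0.1). The cause was not tested. The named list genes that passed kept their direction under all 13 alternatives with 6 libraries. Scaling moved the balance: 54.1% of calls with 6 libraries were higher, against 45.4% without a composition factor, 38.7% on log2(FPKM + 1) and 39.6% on log2(FPKM + 0.1). The median of all genes shifted by -0.24 without a composition factor with 8 libraries, and by -0.32 and -0.41 on the FPKM scales with 8 libraries and -0.11 and -0.13 with 6. In the 8-library comparison a replicate block over the libraries numbered 1 to 3 in both groups called 0 genes and 0 zinc handling genes, with a shift of the median of -0.20. Deviations of libraries with the same number had correlations of 0.00746, 0.0975 and 0.0134. Knockdown-labelled libraries 1 and 2 stood far apart from library 3, so these values cannot decide whether the numbers pair the libraries. No paired analysis was possible with 6 libraries because the groups share 1 number.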
